A study of Mus musculus with 3 samples.

Results

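The 10 genes described here, called the members, are Lcn2, Ltf, Saa1, Saa2, Saa3, Defb1, Defb6, Camp, Slpi and Reg3g, and they encode secreted antimicrobial proteins and serum amyloid A. They were picked by gene symbol, as all probe sets with one of these names in the platform annotation, which gave 12 probe sets for 10 of the 18193 genes named on the array. Back skin of male mice was measured on 3 Affymetrix mouse arrays, 1 array of pooled RNA for each group. The KOE group held 6 interleukin-10 (IL-10) knockout mice on a diet with 8% powdered eggshell membrane (pESM), the KO group 7 such knockout mice on the AIN-93-based control diet, and the WT group 5 C57BL/6J mice on the control diet. Feeding began at 4 weeks of age and lasted 28 weeks, and the dermal fat layer was taken off the skin. The knockout mice descended from crosses of B6.129P2-IL-10tm1Cgn/J males with C57BL/6J females, whereas the WT mice were C57BL/6J, so strain background and genotype cannot be told apart. The sources do not say which mice of a group contributed RNA to its pool.

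The skin surface is defended by small proteins that keratinocytes, glands and neutrophils release. Lipocalin 2 (Lcn2) and lactoferrin (Ltf) withhold iron from bacteria, beta-defensins and cathelicidin damage microbial membranes, and Slpi inhibits neutrophil elastase and is itself antibacterial. Serum amyloid A proteins are lipid-binding acute phase proteins, made in mouse mainly by the liver for Saa1 and Saa2 and by adipocytes and macrophages for Saa3. Many of these genes are known to be induced by IL-1, IL-6, IL-17, IL-22 and tumor necrosis factor through NF-κB, STAT3 and C/EBP transcription factors. IL-10 restrains NF-κB signaling in immune cells.

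The start regions of the members are shown first, because 7 of them share a short run of letters known from C/EBP sites. RefSeq start regions (GRCm38.p6, 250 bases before to 50 after a start site) were held for 9 of the 10 members, all but Defb1. The C/EBP letters TTGCNNAA, searched on both strands, occurred in 7 of these 9 and in 10.8% of 32851 start regions of the same length. The start used for Saa1 lies 201 bases and that for Saa3 3939 bases inside the outermost extent of the gene, so these regions belong to an internal start, and the other 7 starts lie at the gene's outermost end. The Saa1 and Saa2 regions were 95.3% identical, so they do not count as separate sequences. An NF-κB core of GGG and CC set apart by any 5 bases occurred in 7 of 9 members but also in 50.8% of all regions. A STAT core, TTCNNNGAA, occurred in 0 of 9, against 8.3% of all, and the TATA box letters TATAAA in 1 of 9, against 13.6%. No C/EBP match in a member overlapped an NF-κB match. A match of letters is a description and not a binding site, and binding was not measured.

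The 7 members that hold the C/EBP letters are shown as up to 30 bases around the first match, which begins 216 bases before the start in Lcn2 and 241 in Slpi. The stretches lie for Lcn2 at chr2:32387937-32387966 (minus strand), Ltf at chr9:111019206-111019235 (plus strand), Slpi at chr2:164356730-164356757 (minus strand), Saa1 at chr7:46743144-46743173 (minus strand), Saa2 at chr7:46751639-46751668 (plus strand), Saa3 at chr7:46715757-46715786 (minus strand) and for Defb6 at chr8:19225258-19225287 (plus strand). All sequences run 5′ to 3′ along the gene, and capitals mark the C/EBP letters on either strand.
Lcn2: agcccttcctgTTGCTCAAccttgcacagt
Ltf: aggcaggcctaTTGGGCAAtagggtggggc
Slpi: gaatttgtaTTGAGCAAtaggttagagt
Saa1: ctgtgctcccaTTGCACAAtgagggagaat
Saa2: ctgtgctcccaTTGCACAAtgagggaaaat
Saa3: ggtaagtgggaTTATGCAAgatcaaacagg
Defb6: ggtagctcttcTTGCTAAAcaatacaggaa

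The values are probe set signals on a linear scale, scaled by the authors to the same trimmed mean on each array. The study's methods set a lower limit of 40, which was reached by 69.5% of probe sets in KOE, 65.3% in KO and 68.3% in WT. A gene was called higher or lower when its signals differed by at least 1.5-fold and at least 1 of the 2 arrays reached 40. Each group being a single array, the differences describe these pools and carry no test. As a measure of technical spread only, log2 ratios of different probe sets for 1 gene had an SD of 0.29 for KOE vs. KO and 0.36 for KO vs. WT, and of 0.42 and 0.48 at mean signals of 40 to 200. Skin was checked by its markers, and 10 of 10 epidermal and 7 of 7 measured dermal fibroblast markers were at 40 or more on each array. Hair shaft and root sheath markers stood apart in WT, with a summed signal of 687 in KOE, 902 in KO and 183891 in WT and with 12 of 12 measured lower in KO than in WT, and their part in the members' differences was not tested. Il10 itself had a signal of 401 in KOE, 679.9 in KO and 17.0 in WT, and since the part of the altered allele that this probe set reads was not tested, it is no check of the genotype.

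Of the 10 members, 5 reached a signal of 40 on all 3 arrays, namely Lcn2, Saa3, Defb1, Defb6 and Slpi. Saa1, Saa2 and Ltf reached it on some arrays, and Camp and Reg3g on none. By array, 6 members reached 40 in KOE, 8 in KO and 6 in WT. Differences of the 5 weaker members therefore rest on signals near or under the limit, and a member that reached 40 in KO alone could be called only as higher there.

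**Figure D1:**
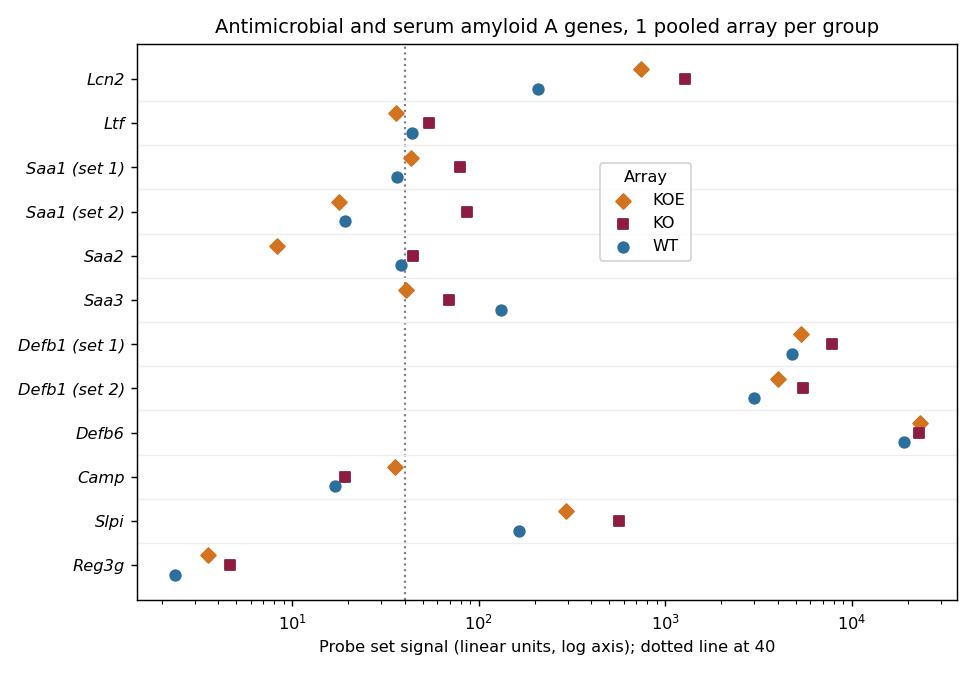
Signal of each member's probe sets on the KOE, KO and WT arrays, from 1 array of pooled RNA per group, on a log axis with a dotted line at 40. Signals of different probe sets are not comparable with each other. For Lcn2, Slpi, Saa1 and Defb1 the KO square lies to the right of both other points, for Saa3 the WT circle lies farthest right, and Camp and Reg3g stay left of 40.

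Lipocalin 2, which binds the siderophores that bacteria use to take up iron, showed the highest ratio of KO to WT among the members that reached 40 on all arrays. Lcn2 had a signal of 741 in KOE, 1282 in KO and 209 in WT. It was thus 6.15-fold higher in KO than in WT, 1.73-fold lower in KOE than in KO, and still 3.55-fold higher in KOE than in WT. These calls were the same under 3 other scalings and with 40 added to every signal, with log2 ratios of 2.41 to 2.89 for KO vs. WT and of −0.95 to −0.76 for KOE vs. KO. Lactoferrin, the iron-binding protein of neutrophil granules and secretions, stayed near the limit, with 36.0 in KOE, 54.1 in KO and 43.9 in WT. Ltf was lower in KOE than in KO by a log2 ratio of −0.59, just inside the fold limit, with the KOE signal under 40, and it was not called once 40 was added to every signal or signals under 40 were set to 40.

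Slpi, the inhibitor of neutrophil elastase, had the same order of arrays as Lcn2. Its signal was 295 in KOE, 565 in KO and 164 in WT, which is 3.44-fold higher in KO than in WT, 1.91-fold lower in KOE than in KO and 1.80-fold higher in KOE than in WT. Slpi too was called the same way in all 3 comparisons under those 4 alternatives. With a fold limit of 2 the KOE vs. KO call ended for both genes, and the KOE vs. WT call for Slpi. Only Lcn2 and Slpi of the 10 members were higher in KOE than in WT past the cut-off. Reg3g, a lectin that kills Gram-positive bacteria and is best known from the intestine, gave no signal to compare, with 3.53 in KOE, 4.64 in KO and 2.35 in WT.

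The serum amyloid A genes did not move as 1 group in KO against WT, and in KOE against KO all 3 were called lower, each call ending under an alternative. Saa1 had 43.3 in KOE, 79.3 in KO and 36.3 in WT at the first of its probe sets, and 17.7, 87.0 and 19.2 at the second. At the first probe set Saa1 was 2.18-fold higher in KO than in WT and 1.83-fold lower in KOE than in KO, a call that ended with 40 added to every signal. At the second, KO was the only array at 40 or more, and with the other signals set to 40 it was 2.17-fold higher than both. The first probe set was designed on a transcript that RefSeq gives to Saa2, and so was the probe set named Saa2, so Saa1 and Saa2 cannot be told apart there. That named Saa2 had 8.26 in KOE, 44.6 in KO and 38.4 in WT, and its call as lower in KOE than in KO ended when signals under 40 were set to 40, at a ratio of KO to KOE of 1.12.

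Saa3, known from adipocytes and macrophages, ran the other way between KO and WT. Its signal was 40.6 in KOE, 69.4 in KO and 132 in WT, so that it was 1.90-fold lower in KO than in WT and 3.25-fold lower in KOE than in WT. Both calls held under the same 4 alternatives, and with a fold limit of 2 that of KO vs. WT was lost. Saa3 was also 1.71-fold lower in KOE than in KO, a call that ended when 40 was added to every signal, and its KOE signal lay just above the limit. Saa4, a serum amyloid A gene outside the 10 members, was named after its values had been seen, and had 29.6 in KOE, 40.1 in KO and 46.4 in WT.

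Beta-defensins, small cationic peptides with a fold held by disulfide bonds, were among the members with signal on every array. Defb1, which epithelia make without a stimulus, had 5356 in KOE, 7824 in KO and 4750.4 in WT at its first probe set, and 4041, 5475 and 2998 at the second. It was 1.65- and 1.83-fold higher in KO than in WT, though after cyclic loess normalization the first was not past the cut-off. In KOE it was 1.46- and 1.35-fold lower than in KO, under the cut-off as deposited and past it after scaling to a common median. Defb6, known in mouse from skeletal muscle as well as from epithelia, had 23234 in KOE, 22873 in KO and 19090.4 in WT and was past the cut-off in no comparison, also under those 4 alternatives. Camp, which encodes cathelicidin, had 35.8 in KOE, 19.1 in KO and 16.9 in WT, all under 40.

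Counted over the members, 0 rose and 6 fell past the cut-off in KOE against KO, where 10.9% and 5.33% of the 14594 genes at 40 or more in at least 1 of the 2 arrays did. With at least 40 in both arrays 4 were lower, namely Lcn2, Slpi, Saa1 and Saa3. The count was 3 with 40 added to every signal, namely Lcn2, Slpi and Saa2. It was 2 with a signal limit of 100, Lcn2 and Slpi, and 1 with a fold limit of 2, Saa2. The KOE signal of Saa2 lay under 40, and its call ended when signals under 40 were set to 40. In KO against WT, 4 were higher, Lcn2, Slpi, Saa1 and Defb1, and 1 was lower, Saa3, where 10.9% and 14.5% of 14495 genes were. In KOE against WT, 2 were higher and 1, again Saa3, was lower, where 12.4% and 10.4% of 14784 genes were. Of the 8 members at 40 or more on some array, 3 were under it on another, and Saa2 and Ltf entered the KOE vs. KO count only through KO. Saa1 and Saa2 are both in that count, but the probe sets read for them cannot tell these genes apart. The KO array enters both KOE vs. KO and KO vs. WT, so a high KO signal moves both.

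The median log2 ratio over all 10 members was −0.68 for KOE vs. KO, against 0.03 over all genes, and 0.51 for KO vs. WT, against 0.01. With signals under 40 set to 40 the members' medians were −0.49 and 0.28. Scaling to a common median shifted every log2 ratio by −0.16 and 0.27, which moved the share of higher genes among all genes called to 47.7% from 67.1% as deposited for KOE vs. KO and to 72.0% from 42.9% for KO vs. WT. After quantile normalization these shares were 49.6% and 57.4%, and after cyclic loess normalization 48.7% and 52.5%. Under the 3 scalings 6 or 7 members were lower in KOE vs. KO and 3 or 4 were higher in KO vs. WT.

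**Figure D2:**
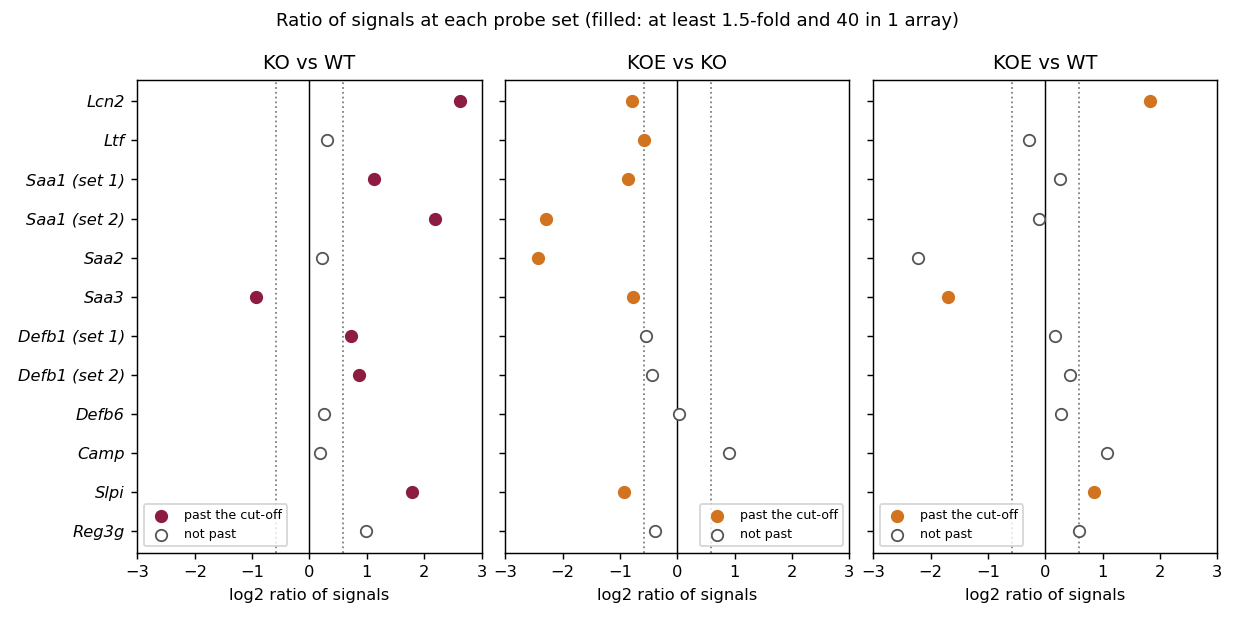
Log2 ratio of signals at each probe set of the 10 members in 3 panels, 1 for each pair of groups, from 1 pooled array per group. Filled points are past the cut-off, dotted lines mark 1.5-fold, and ratios over signals under 40 are plotted as measured. Lcn2 at 2.62 and Slpi at 1.78 lie farthest right among the filled single-probe-set genes in KO vs. WT, and no filled point lies right of 0 in KOE vs. KO.

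**Figure D3:**
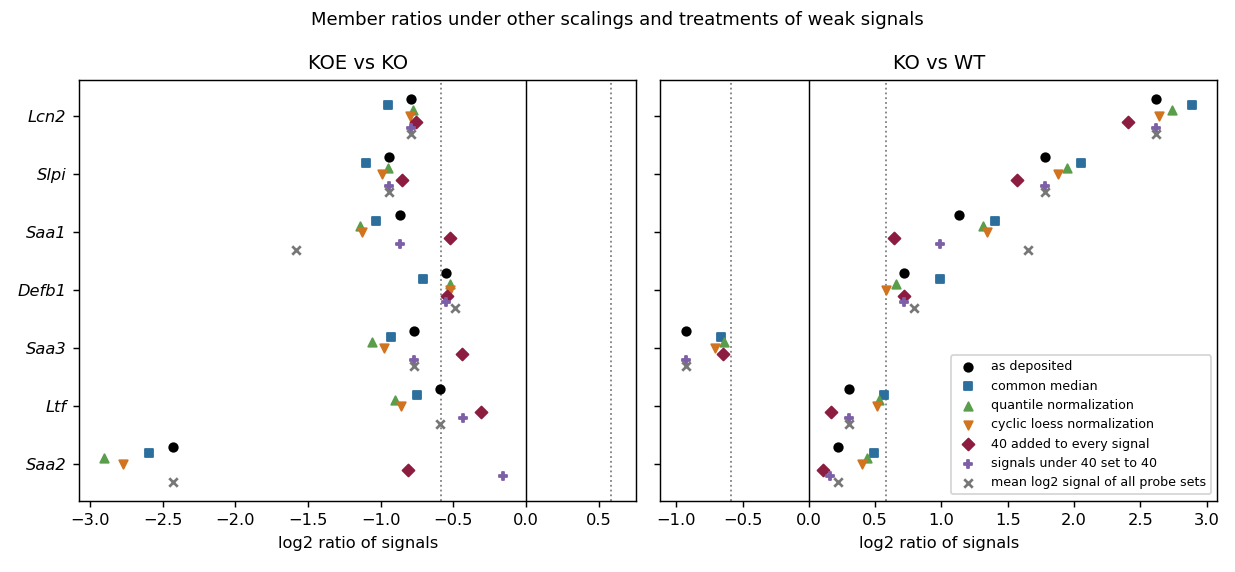
Log2 ratio of 7 members for KOE vs. KO and KO vs. WT with the signals as deposited, under 3 scalings, with 40 added, with a floor of 40 and with all probe sets averaged. Dotted lines mark 1.5-fold. The points of Lcn2 and Slpi stay on 1 side of the dotted lines, while those of Saa1, Saa3, Ltf, Saa2 and Defb1 cross a dotted line under at least 1 setting in KOE vs. KO or KO vs. WT.

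Genes of the signaling upstream of the members were read next, blockers included. Of the blockers, Il22ra2 and Il1r2 were both called higher in KO than in WT and lower in KOE than in KO. Of 33 measured cytokines, receptors and transcription factors, 19 rose past the cut-off and 1 fell in KO against WT, while in KOE against KO 0 rose and 11 fell, with median log2 ratios of 0.74 and −0.18. All 33 were at 40 or more in KO and could be called, and of all genes that could be called 10.9% rose and 14.5% fell in KO against WT and 10.9% rose and 5.33% fell in KOE against KO. Cebpd, a C/EBP transcription factor of the acute phase response, had 2511 in KOE, 5134 in KO and 1090.2 in WT, whereas its relative Cebpb was level, with 8196, 8054 and 8046. Cebpd was also the fourth nearest of 12886 genes to Lcn2 in its pair of log2 ratios over the 3 arrays, at a distance of 0.45, after Fam107a, Alas2 and Cyp3a13 and before Atf3. With 3 arrays such nearness is a description of the pattern only.

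Cytokine genes were among them. Il1b, which encodes the inflammatory cytokine IL-1β, had 142 in KOE, 486 in KO and 218 in WT. Tnf, which encodes tumor necrosis factor, had 54.2 in KOE, 77.1 in KO and 12.9 in WT. Both had their highest signal in KO, and Il1b in KOE was below WT. Tnf was not past the cut-off in KOE against KO, and its ratio of KO to WT rests on a WT signal under 40. Other cytokines had another order, as Il24, an IL-10 family cytokine, had 16.3 in KOE, 41.5 in KO and 43.3 in WT, and Il17a, which encodes IL-17A and was named after its values had been seen, had 81.5 in KOE, 62.6 in KO and 24.2 in WT.

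Il22ra2, which encodes a soluble receptor that blocks IL-22, had the largest ratio of KO to WT on the list. It had 2757 in KOE, 8230 in KO and 462 in WT. Il1r2, a decoy receptor for IL-1, had 5154, 8050 and 4835 in the same order, and Tnfrsf1a, a receptor of tumor necrosis factor, was not past the cut-off with 3578, 3306 and 2388. Named after their values had been seen, the IL-36 cytokine genes Il1f6, Il1f8 and Il1f9 and the NF-κB cofactor gene Nfkbiz, which is needed for Lcn2 induction, were each higher in KO than in WT and lower in KOE than in KO. Il1f9 had 866 in KOE, 1453 in KO and 473 in WT, and Nfkbiz had 1831, 2829 and 1461. Other genes of the list, likewise named after their values had been seen, did not follow. Il6ra, Il17rc and Rel were higher in KO than in WT but not past the cut-off in KOE against KO. Stat3 and Cebpa were past it in neither comparison.

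Of 27 measured acute phase genes outside the members, 24 reached 40 in each comparison, and of these 9 rose and 3 fell in KO against WT, and in KOE against KO 2 rose and 9 fell. Hp, which encodes the hemoglobin-binding protein haptoglobin, was lower in KO than in WT and higher in KOE than in KO, with 707 in KOE, 249 in KO and 2724 in WT. Apcs and Fga, which encode serum amyloid P and a fibrinogen chain, reached 40 in KO alone, with 3.88 and 3.20 in KOE, 61.5 and 61.7 in KO and 6.69 and 8.83 in WT. Crp, Fgg, Itih3 and Itih4, named after their values had been seen, also reached 40 in KO alone. The metallothionein genes Mt1 and Mt2 were past the cut-off in neither comparison, with Mt2 at 12378 in KOE, 13832 in KO and 13716 in WT.

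Other antimicrobial genes split in both directions. Of 34 measured, 22 could be called in KO against WT, where 7 rose and 3 fell, and 25 in KOE against KO, where 4 rose and 6 fell. To set beside this and the other list counts, 10.9% of all genes that could be called rose and 14.5% fell in KO against WT. In KOE against KO 10.9% of all such genes rose and 5.33% fell. The lysozyme genes Lyz1 and Lyz2 were 1.56- and 1.68-fold lower in KOE than in KO, with 8886 and 5189 in KOE, 13867 and 8702 in KO and 11020.0 and 6906 in WT. Hamp2, a hepcidin gene, was 3.71-fold higher in KO than in WT, with 3334 in KOE, 4535 in KO and 1222 in WT. Retnla, which encodes a resistin-like protein, ran opposite to Lcn2, with 1858 in KOE, 475 in KO and 2091 in WT.

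Genes related to Slpi and to the defensins follow. Of 15 genes of whey acidic protein (WFDC) domain proteins and protease inhibitors, all of which could be called, 6 rose and 3 fell in KO against WT, and in KOE against KO 1 rose and 2 fell. Spink5, an inhibitor of epidermal kallikreins, had 11910.4 in KOE, 14576 in KO and 7617 in WT. Of 20 beta-defensin genes, Defb1 and Defb6 included, 8 reached 40 in KOE, 5 in KO and 3 in WT. Defb8 had the largest differences of the family in KO vs. WT and KOE vs. KO, resting on a KO signal under 40, with 1439 in KOE, 21.5 in KO and 3384 in WT, so that it was lower in KO than in WT and higher in KOE than in KO.

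Of 14 measured genes for receptors and carriers of the encoded proteins, 12 could be called in each comparison, and 2 rose and 1 fell in KO against WT, and in KOE against KO 1 rose and 1 fell. Over all genes that could be called these shares were 10.9% and 14.5% in KO against WT and 10.9% and 5.33% in KOE against KO. Tlr4, the lipopolysaccharide receptor, which serum amyloid A proteins can also engage, had 228 in KOE, 513 in KO and 193 in WT. Extl3, a receptor of Reg3 proteins in keratinocytes, had 1185 in KOE, 921 in KO and 937 in WT, under the cut-off in both comparisons.

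**Figure D4:**
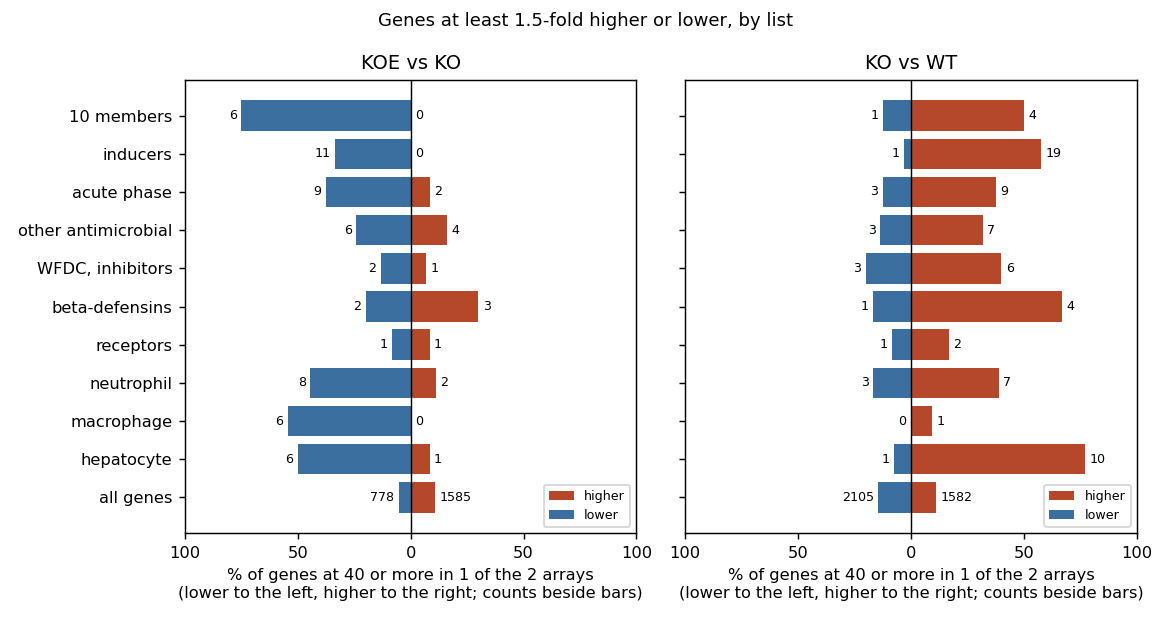
Share of genes at least 1.5-fold higher (right) or lower (left), among genes at 40 or more in at least 1 of the 2 arrays, for the members, the related lists, marker lists and all genes, with counts beside the bars. In KOE vs. KO 6 members and 11 genes of the list labelled inducers were lower and none was higher. In KO vs. WT 4 members and 19 genes of that list were higher. That list also holds blockers, such as Il22ra2 and Il1r2.

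Markers of other cell types also differed between the arrays, some in the members' directions and some against them, and their part in the members' differences was not tested. In skin pools fewer cells of a type and less RNA per cell cannot be told apart. Neutrophils carry Lcn2, Ltf and Camp, and of 21 measured neutrophil markers 18 could be called in each comparison, of which 7 rose and 3 fell in KO against WT, and in KOE against KO 2 rose and 8 fell. Their summed signal was 2459 in KOE, 3339 in KO and 3729 in WT, and 15 of them reached 40 in KOE, 17 in KO and 12 in WT. S100a8, Padi4 and Stfa3 gave the largest parts of the sum in WT. Padi4 and Stfa3 were lower in KO than in WT, with 74.2 and 451 in KOE, 95.3 and 157 in KO and 720 and 516 in WT. Granule protein genes of the list, named after their values had been seen, did not share an order. Mmp8 was highest in KO, with 47.3 in KOE, 58.1 in KO and 38.3 in WT. Mmp9 and Fcnb were lowest in KO, with 246 and 108 in KOE, 186 and 85.9 in KO and 206 and 102 in WT, but past the cut-off in no comparison. Prtn3 and Ngp were highest in KO, with 19.1 and 52.5 in KOE, 68.7 and 80.9 in KO and 20.7 and 26.5 in WT. Ctsg was under 40 on all 3 arrays, with 7.28 in KOE, 18.4 in KO and 2.35 in WT. Elane was lower in KO than in WT and higher in KOE than in KO, with 44.4 in KOE, 25.99 in KO and 46.1 in WT. Mpo was higher in KO than in WT and not past the cut-off in KOE against KO. Its signal was 59.8 in KOE, 47.7 in KO and 29.1 in WT. S100a8 and S100a9, whose products form calprotectin and which are also on the list of other antimicrobial genes, had 293 and 282 in KOE, 815 and 550.2 in KO and 982 and 187 in WT.

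Hepatocytes make Saa1 and Saa2, and of 15 measured hepatocyte markers 13 could be called in KO against WT, where 10 rose and 1 fell, and 12 in KOE against KO, where 1 rose and 6 fell. The summed signal of this list was 2200.4 in KOE, 3945 in KO and 1689 in WT. Albumin (Alb) had 109 in KOE, 334 in KO and 77.1 in WT. Ttr, which encodes transthyretin, had 586 in KOE, 1594 in KO and 4.17 in WT, the last being under 40. Not all markers of the list had this order. Cps1 and Tdo2 were highest in WT, with 37.8 and 336 in KOE, 21.2 and 487 in KO and 241 and 673 in WT.

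Adipocytes and macrophages are among the known sources of Saa3 in mouse. Of 7 adipocyte markers 6 fell and 1 rose in KO against WT, and in KOE against KO 6 rose and 0 fell, with summed signals of 16368 in KOE, 8377 in KO and 25231 in WT. Of 12 macrophage markers, 11 of which could be called, 1 rose and 0 fell in KO against WT, and in KOE against KO 0 rose and 6 fell, with summed signals of 11586 in KOE, 17558 in KO and 14886 in WT. Mrc1, a mannose receptor of tissue macrophages, had 1189 in KOE, 2612 in KO and 1826 in WT. Csf1r, the strongest of the list, was highest in WT, with 3999 in KOE, 4582 in KO and 4856 in WT. Adgre1 and Cd68, named after their values had been seen, had 680 and 380 in KOE, 736 and 470 in KO and 815 and 532 in WT. Csf1r, Adgre1 and Cd68 were past the cut-off in no comparison.

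Of 15 skeletal muscle markers 13 fell and 1 rose in KO against WT, and in KOE against KO 14 rose and 0 fell, with summed signals of 51464 in KOE, 12143 in KO and 36770 in WT, while Defb6 was past the cut-off in neither comparison. The epidermal markers were nearly level, with 0 of 10 higher and 1 lower in KO than in WT and none past the cut-off in KOE vs. KO. Stress keratins, which activated keratinocytes make, did not share a direction, with Krt6b at 102 in KOE, 231 in KO and 31.4 in WT and Krt16 at 774, 653 and 1443.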

How the data were processed

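RNA pooled within each group (250 ng) was hybridized to the Affymetrix Mouse Genome 430 2.0 array. The authors deposited signal intensity values on a linear scale, made with Affymetrix Microarray Analysis Suite 5 and R 3.5.1. The 2% trimmed mean was checked to be 500 on each array, and no detection calls were used here. Of 45101 probe sets, 64 control probe sets were left out. Names came from the platform annotation, brought to current symbols by gene identifier for 34741 probe sets. A probe set with 1 gene name was held for 34945, several names for 932, and 9160 are unnamed here. Where a gene had several probe sets, the one strongest on average over the 3 arrays stood for it, and all probe sets of the members are given.

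Ratios were formed from the deposited signals without further scaling. The number of arrays limits the precision, and no p-value is given. Alternatives were a limit of 40 in both arrays or of 100, a fold limit of 2, a common median, quantile and cyclic loess normalization (span 0.7, 3 iterations), 40 added or as a floor, averaged probe sets, and probe sets with suffix x or s left out. The calling step was tested on simulated data.

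The members and gene lists were chosen with earlier results of these data known. Named genes are all members, the 4 strongest and the 3 most different called genes of each other list in KO vs. WT and KOE vs. KO, a selection of which is printed, Il10, the 5 genes nearest to Lcn2, and genes named as added later. Python 3.11.15, numpy 2.4.6, pandas 2.3.3, Biopython 1.88, R 4.3.3 and limma 3.58.1 were used.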

Additional observations from a re-analysis of the deposited data

How the results depend on the processing

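No count or median changed direction. The count of members lower in KOE than in KO, 6 as deposited, was 2 with a signal limit of 100, 1 with a fold limit of 2 and 3 with 40 added to every signal. The 1 left with a fold limit of 2 was Saa2, with a KOE signal under 40. With a fold limit of 2, the member lower in KO than in WT was lost, leaving 0, and 1 member in place of 2 was higher in KOE than in WT. The other 76 counts and medians stayed within 1.5 times or within the spread of probe sets of 1 gene. Of the single ratios of members under the alternatives, 174 moved by less than that spread, 33 moved by more, and 0 called ratios changed sign. With 1 array per group no array could be left out. No paired analysis was possible because each group has 1 array. Signals near 40 limit what can be read for Saa1, Saa2, Saa3 and Ltf, and nothing can be read for Camp and Reg3g.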
